A study of Mus musculus with 4 samples.

Results

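The genes described here encode parts of myostatin, follistatin and TGF-beta signalling, and they were measured in quadriceps muscle of mice labelled as carrying a Lin28A transgene and of wild-type (WT) mice. The set was chosen by gene symbol and holds 10 named genes, of which 9 had a row among the 18091 rows of the value table. They are the ligands Mstn and Tgfb1, the secreted proteins Fst and Fstl1, the receptors Acvr2b, Tgfbr1 and Tgfbr2, and the SMADs Smad3 and Smad7. Fstl3, a follistatin-related antagonist, was not analysed here. There were 2 Lin28A Tg samples and 2 WT samples, all from CD-1 males 5 weeks old, with 1 Illumina Ref-8 bead array for each sample's biotin-labelled cRNA. The titles number the males within each group, which reads as separate animals. The labels name neither the promoter that drives the transgene nor the founder line, and say nothing of litters or batches, so p-values cover the spread among these 4 samples alone. The comparison asks which of these muscle transcripts differ in mice labelled Lin28A Tg.

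Myostatin, the product of Mstn, is a ligand of the TGF-beta family that skeletal muscle secretes and that limits muscle mass. It binds the activin type II receptors, of which Acvr2b encodes one, and these act with a type I receptor to phosphorylate SMAD2 and SMAD3, which then enter the nucleus and act on transcription. Follistatin, from Fst, binds myostatin and activins and keeps them from their receptors, and SMAD7 inhibits the pathway from inside the cell. TGF-beta 1 signals through TGFBR2 and TGFBR1 to the same SMADs and drives production of collagen by fibroblasts. LIN28A binds the precursors of the let-7 microRNAs and keeps them from being processed.

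In Lin28A Tg muscle, Fstl1, Tgfbr1, Acvr2b and Fst read above both WT arrays on both transgenic arrays, by 1.12 to 1.40 times, while Tgfb1, Tgfbr2 and Smad3 had overlapping groups. Mstn and Smad7 were at or near background. No member passed the test over all genes, the members' adjusted p-values lying between 0.539 and 0.989 (limma, Benjamini-Hochberg over 7891 genes). No gene of the table passed either (0% called, smallest adjusted p = 0.366 with limma), while 399 genes (5.06%) lay higher and 301 (3.81%) lower in Lin28A Tg at an unadjusted p under 0.05. Of the members, 2 were among the 399 and 0 among the 301. An exact permutation test of 2 arrays against 2 cannot give a two-sided p below 0.333, so no single value could pass by that route.

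The arrays read muscle, and arrays of the same group also differed from each other. Acta1, Ckm and 4 further skeletal muscle markers were above background on all 4 arrays. The Lin28a row was below the background threshold on all 4, at 86.4 and 88.0 in Lin28A Tg and 82.9 and 82.6 in WT, so it does not check the labels. WT replicate 1 stood apart, since the summed intensity of the 3 hepatocyte markers tested was 6373 there, against 285 and 312 on the Lin28A Tg arrays and 254 on WT replicate 2, with Alb below background on all 4. Apoa2 and Ttr, outside that sum because they passed the background threshold on WT replicate 1 alone, read 5506 and 1746 on it. WT replicate 2 had the highest slow-fibre sum, 9500, against 1845 and 3864 in Lin28A Tg and 1506 on WT replicate 1. The immediate-early list summed to 12297 and 8992 in Lin28A Tg and to 2406 and 4735 in WT. Those sums separated the groups, and 7 of the 8 genes tested lay above WT without overlap, where 21.6% of all genes tested did so. The immediate-early difference follows the group labels and cannot be told apart from genotype. The part of these array differences in the members' values was not tested, and for the members whose groups did not overlap any array whose omission moves the difference by over 1.5 times is named below.

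All intensities are linear units that still hold a background level or an added offset, here called background, and a reading above 90.1 was taken as above background. The 7 members other than Mstn and Smad7 exceeded that level on all 4 arrays and were tested. Values of different genes come from different probes and are not comparable as levels.

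**Figure D1:**
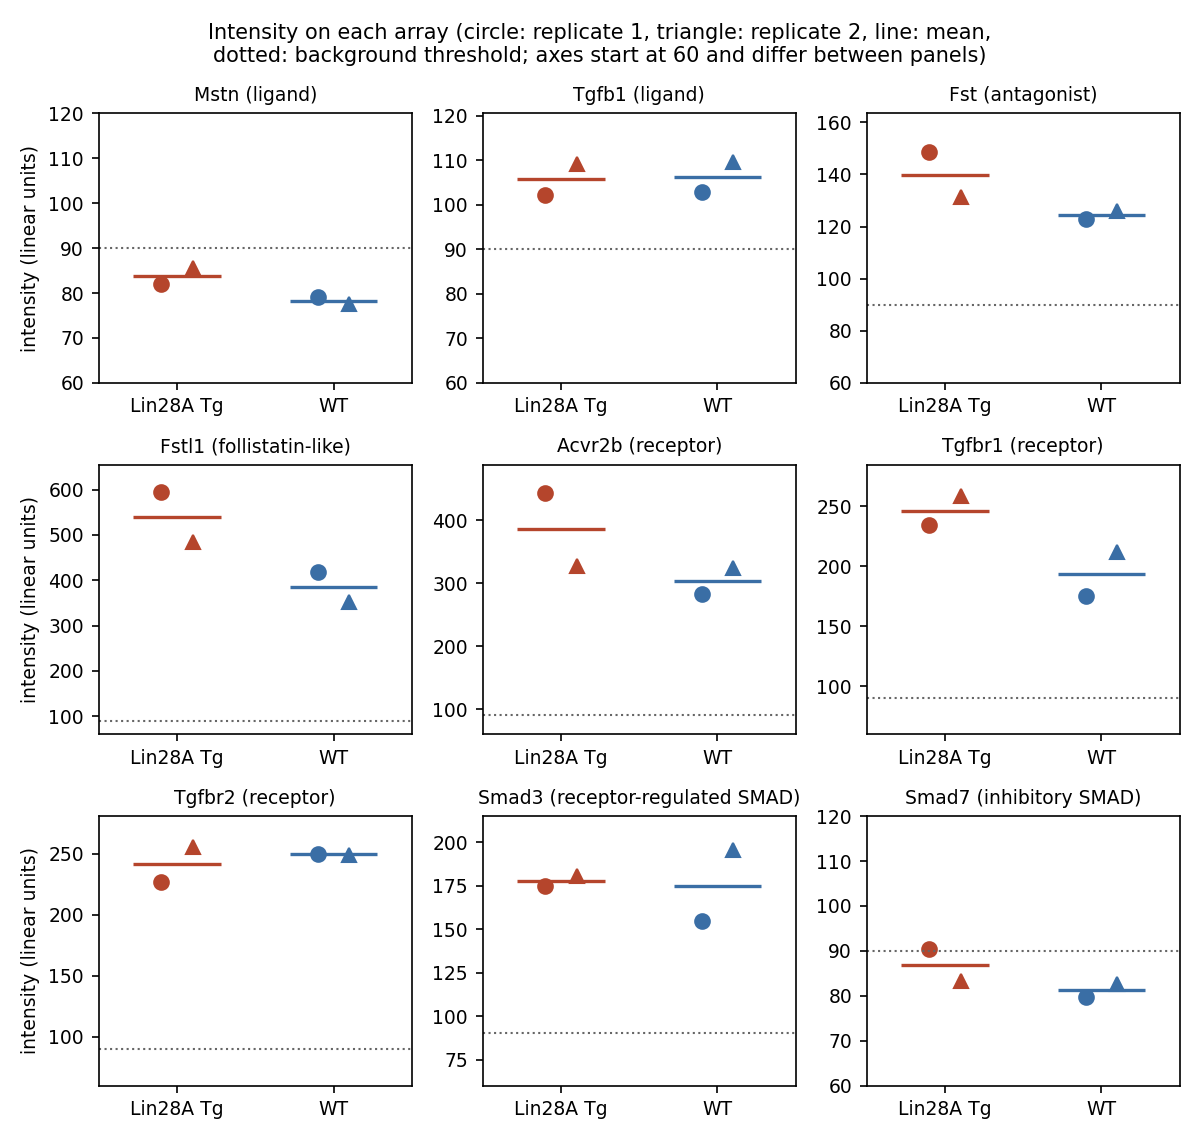
Intensity in linear units (vertical axes, which start at 60 and differ between panels) of the 9 members in Lin28A Tg (left) and WT (right). Circles are replicate 1, triangles replicate 2, lines the group means and the dotted line the background threshold of 90.1. Fstl1, Tgfbr1, Acvr2b and Fst have both Lin28A Tg points above both WT points, and Mstn lies under the dotted line throughout.

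Of the 2 ligands, Mstn gave no reading above background and Tgfb1 was much alike in both groups. The Mstn row gave 81.9 and 85.6 in Lin28A Tg muscle and 79.0 and 77.5 in WT muscle, below the threshold on every array. So no fold is given, and a reading at background does not show that the transcript was absent. Both transgenic readings lay above both WT readings, but 16.6% of the 10013 genes too dim to be tested did the same. Tgfb1 read 102 and 109 in Lin28A Tg and 103 and 110 in WT. Its groups overlapped almost fully, and the log2 fold change was -0.01 (SE 0.07), with a 95% interval of -0.20 to 0.18, or 0.871 to 1.14 times. Because the probe was dim, with background still in the reading, this interval understates the range of true folds.

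The secreted proteins Fst and Fstl1 both read higher on the transgenic arrays. Fstl1 encodes a secreted glycoprotein with a follistatin-like domain that fibroblasts and muscle produce. It read 595 and 485 in Lin28A Tg and 419 and 353 in WT. The lowest transgenic array was above the highest WT array, and the spread within each group was as large as that gap or larger. Fstl1 averaged 540 ± 78.0 in Lin28A Tg and 386 ± 46.7 in WT (SD, n = 2 each), a log2 fold change of 0.48 (SE 0.14, 95% interval 0.10 to 0.87), or 1.40 times, with an unadjusted p of 0.0253 and an adjusted p of 0.539 (limma). It was the member with the smallest p, and 364 genes of the table had a p as small or smaller. Fst read 149 and 131 in Lin28A Tg and 123 and 126 in WT. Only Lin28A Tg replicate 1 stood well clear of the WT arrays. The log2 fold change of Fst was 0.17 (SE 0.08, 95% interval -0.06 to 0.39), which was 0.08 without Lin28A Tg replicate 1 and 0.26 without Lin28A Tg replicate 2. With the background modelled and removed (normexp, offset 16) it was 0.31.

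Fibroblast markers were examined beside Fstl1, because fibroblasts express it. The 6 markers, all above background, summed to 7791 and 7043 in Lin28A Tg and to 8431 and 6855 in WT. The WT arrays thus had both the highest and the lowest sum. Without overlap, 1 marker of the 6, Thy1, lay above WT and 0 below, where 21.6% and 16.8% of all genes tested did so. Fewer cells of a type and less RNA per cell cannot be told apart in whole muscle. Among 1255 tested genes outside the lists with at least 0.5 times the range of Fstl1, the closest in pattern over the 4 arrays were Megf10, Prc1 and Ky. Their root mean square differences from Fstl1, on log2 values centred on each gene's mean, were 0.03, 0.04 and 0.05. Megf10, whose product is a receptor found on satellite cells, read 137 and 117 in Lin28A Tg and 102 and 85.3 in WT. Prc1, which encodes a protein of the dividing cell's spindle midzone, read 151 and 131 in Lin28A Tg and 115 and 96.2 in WT. Ky, a muscle gene named after the kyphoscoliotic mouse mutant, read 7140 and 5948 in Lin28A Tg and 4949 and 4531 in WT. With 4 points a match of this kind is a description of these arrays.

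Of the 3 receptors, Tgfbr1 and Acvr2b read higher in Lin28A Tg and Tgfbr2 did not. Tgfbr1, the type I TGF-beta receptor whose kinase phosphorylates SMAD2 and SMAD3, read 234 and 259 in Lin28A Tg and 175 and 212 in WT. The groups did not overlap, and WT replicate 1 was the lowest. Tgfbr1 averaged 246 ± 17.4 in Lin28A Tg and 194 ± 25.8 in WT (SD, n = 2 each), a log2 fold change of 0.35 (SE 0.12, 95% interval 0.03 to 0.67), or 1.28 times, with an unadjusted p of 0.0383 and an adjusted p of 0.543 (limma). Without WT replicate 1 the log2 fold change was 0.22, and without WT replicate 2 it was 0.49.

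Acvr2b, the activin type II receptor that binds myostatin, read 444 and 327 in Lin28A Tg and 283 and 324 in WT. Lin28A Tg replicate 1 alone was high, and Lin28A Tg replicate 2 exceeded WT replicate 2 by little. The log2 fold change was 0.33 (SE 0.17, 95% interval -0.14 to 0.80, adjusted p = 0.705 with limma), the widest error among the members. It was 0.11 without Lin28A Tg replicate 1 and 0.55 without Lin28A Tg replicate 2. Tgfbr2, the type II receptor that binds TGF-beta first, read 227 and 255 in Lin28A Tg and 249 and 249 in WT. Its transgenic arrays lay on either side of the WT pair, and the log2 fold change was -0.05 (SE 0.08, 95% interval -0.27 to 0.16), or 0.831 to 1.12 times.

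Neither SMAD separated the groups in a readable way. Smad3, which carries the signal of both myostatin and TGF-beta, read 175 and 181 in Lin28A Tg and 155 and 196 in WT. The WT arrays enclosed the transgenic ones, and the log2 fold change was 0.03 (SE 0.13, 95% interval -0.32 to 0.38). Smad7, the inhibitory SMAD that TGF-beta itself induces, read 90.5 and 83.3 in Lin28A Tg and 79.8 and 82.7 in WT. It passed the threshold on 1 array of 4, Lin28A Tg replicate 1, and was not tested.

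**Figure D2:**
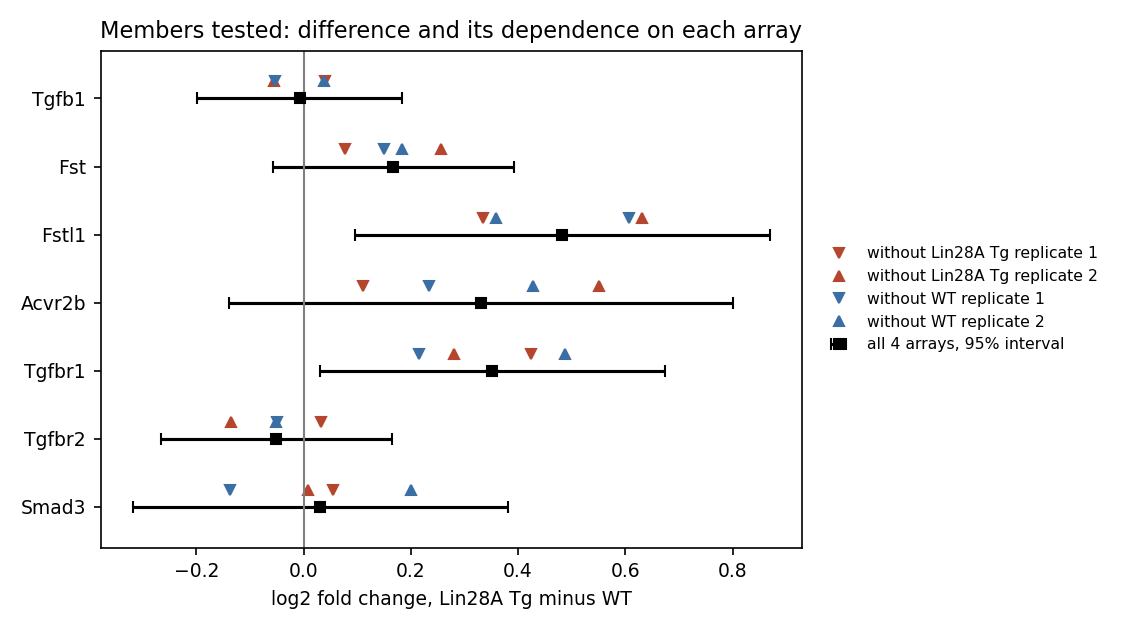
Log2 fold change, Lin28A Tg minus WT (horizontal axis), of the 7 members tested. Squares with bars are the estimate from all 4 arrays with its 95% interval, and triangles are estimates with 1 array left out. The intervals of Fstl1 and Tgfbr1 exclude 0 before adjustment, and the triangles of Tgfb1, Tgfbr2 and Smad3 fall on both sides of 0.

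As a list, 4 of the 7 members tested had both transgenic arrays above both WT arrays and 0 had both below. Over all 7891 genes tested, 21.6% lay above without overlap and 16.8% below. The members' median log2 fold change was 0.17, beside 0.01 over all genes tested. That median was the value of Fst, and it was 0.08 without Lin28A Tg replicate 1.

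Promoter sequences are shown for Fstl1, Tgfbr1 and Acvr2b, the 3 members with the largest differences among those whose groups did not overlap. RefSeq windows for GRCm38.p6 were found for 7 of the 9 members, and the 250 bases before the annotated start are printed 5′ to 3′ (the outermost of 2 starts for Tgfbr1). Capitals mark the GC box GGGCGG and the SMAD box CAGAC, searched on both strands as CCGCCC and GTCTG.
Fstl1 (chr16:37776805-37777054, plus strand): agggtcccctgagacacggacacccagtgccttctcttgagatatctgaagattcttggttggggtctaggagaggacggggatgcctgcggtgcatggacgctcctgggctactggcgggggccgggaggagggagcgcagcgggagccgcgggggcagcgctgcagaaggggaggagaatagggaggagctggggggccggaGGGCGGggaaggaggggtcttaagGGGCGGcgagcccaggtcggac
Tgfbr1 (chr4:47352972-47353221, plus strand): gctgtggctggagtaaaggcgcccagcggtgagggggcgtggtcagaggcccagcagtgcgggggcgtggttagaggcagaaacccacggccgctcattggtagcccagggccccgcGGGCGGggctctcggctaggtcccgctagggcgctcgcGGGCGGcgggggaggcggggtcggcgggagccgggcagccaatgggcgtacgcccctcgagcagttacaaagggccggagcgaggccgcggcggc
Acvr2b (chr9:119401928-119402177, plus strand): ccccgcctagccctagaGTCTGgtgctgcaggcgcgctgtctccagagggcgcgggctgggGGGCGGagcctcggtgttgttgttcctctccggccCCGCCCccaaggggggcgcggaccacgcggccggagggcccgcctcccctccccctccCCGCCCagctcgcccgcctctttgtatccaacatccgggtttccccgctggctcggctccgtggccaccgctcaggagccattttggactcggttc

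The 3 windows were rich in G and C, at 68.0%, 74.8% and 72.8%, where the median over all 32851 windows in the table was 52.4%. GC boxes numbered 2 in Fstl1, 2 in Tgfbr1 and 3 in Acvr2b, and the motif occurs in 32.7% of all windows. The SMAD box occurred in Acvr2b alone of these 3, as GTCTG with its first base 233 bases before the start, and it occurs in 42.2% of all windows. Of the 7 members with a window, 5 held a GC box (Fstl1, Acvr2b, Tgfb1, Tgfbr1 and Smad3) and 3 a SMAD box (Mstn, Acvr2b and Tgfbr2). A match is a run of letters and not a measured binding site.

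Other genes of the pathway lay on both sides of WT. The 4 lists of other ligands, extracellular regulators, receptors and SMADs with their partners held 59 genes, of which 52 had a row and 26 were tested. None passed over all genes (limma, smallest adjusted p = 0.508). Without overlap, 3 of the 26 lay above WT and 6 below, where 21.6% and 16.8% of all genes tested did so. The median log2 fold change of the 26 was 0.02.

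Of 15 other ligands 6 were tested. Inha, the inhibin alpha subunit, had the smallest p, with readings of 111 and 110 in Lin28A Tg and 94.3 and 89.7 in WT, the last below the threshold, and a log2 fold change of 0.27 (SE 0.06, adjusted p = 0.508 with limma). It was 0.67 after normexp. Gdf10, a BMP-like ligand, was at -0.21 (SE 0.17), and at -0.38 without WT replicate 2 and -0.04 without WT replicate 1. Bmp4 was at 0.15 (SE 0.16), and at -0.05 without WT replicate 2 and 0.36 without WT replicate 1. Tgfb2 was at 0.06 and Bmp5 at -0.05. The myostatin relatives Bmp2, Bmp6, Bmp7, Gdf5, Gdf15 and Nodal were below the threshold on all 4 arrays.

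Of 18 other extracellular regulators 8 were tested. Ltbp4, a protein that holds latent TGF-beta in the matrix, read 221 and 237 in Lin28A Tg and 259 and 256 in WT, a log2 fold change of -0.17 (SE 0.06, adjusted p = 0.576 with limma). It was the only regulator of the 8 without overlap. The BMP-binding protein gene Twsg1 was at 0.28 (SE 0.18), and at 0.03 without WT replicate 2. Dcn, whose proteoglycan binds TGF-beta and myostatin, was at -0.18 (SE 0.13), and at -0.06 without WT replicate 1. Furin, the protease that cleaves TGF-beta family precursors, was at 0.03 and Bmper, a BMP regulator, at 0.02.

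Of 10 other receptors 5 were tested, and the type I receptor gene Acvr1 had the smallest p. Acvr1 read 112 and 110 in Lin28A Tg and 124 and 126 in WT, a log2 fold change of -0.18 (SE 0.06, adjusted p = 0.539 with limma) and of -0.36 after normexp. Tgfbr3, the co-receptor betaglycan, was at 0.08 and the endothelial co-receptor gene Eng at -0.06, both without overlap, and Acvr1c and Bmpr1a were at 0.09 and 0.03 with overlap. Acvr2a and Acvr1b, activin receptors through which myostatin can also act, were below the threshold on all 4 arrays.

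Of 16 other SMADs and partners 7 were tested. Ppm1a, a phosphatase that acts on SMAD2 and SMAD3, read 939 and 912 in Lin28A Tg and 1013 and 1092 in WT, a log2 fold change of -0.19 (SE 0.07, adjusted p = 0.557 with limma). Fkbp1a, whose product FKBP12 holds type I receptors inactive, was at -0.18 (SE 0.10) with overlap, and at -0.08 without WT replicate 1. Smad5 and Smad2 were at 0.02 and 0.04. Smad6, the other inhibitory SMAD, read 84.4 and 89.9 in Lin28A Tg, below the threshold, and 90.3 and 95.2 in WT, just above it. Its log2 fold change was -0.09 (SE 0.07), with a 95% interval of -0.27 to 0.10.

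**Figure D3:**
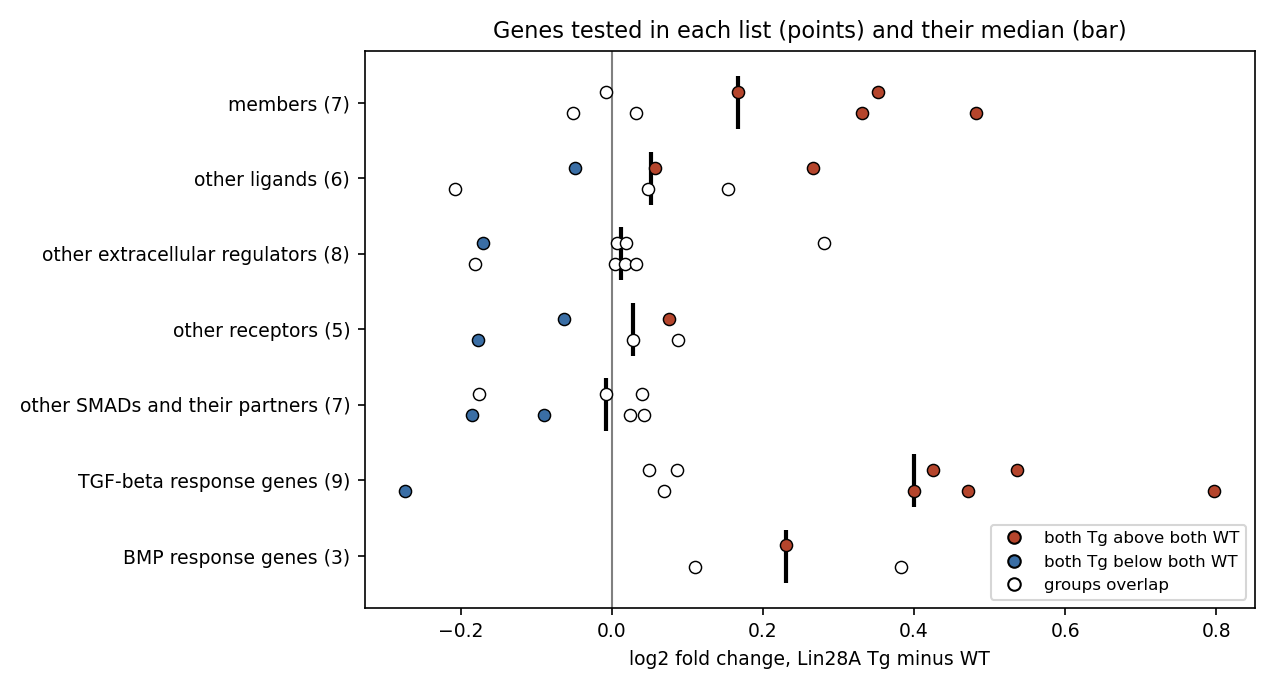
Log2 fold change, Lin28A Tg minus WT (horizontal axis), of every tested gene of the members and of 6 related lists, with the number tested in brackets. Filled points are genes whose groups do not overlap, red above WT and blue below, and bars are list medians. The members' median is 0.17 and that of the TGF-beta response list 0.40, while those of the 4 other pathway lists lie between -0.01 and 0.05.

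Genes that TGF-beta is known to induce were examined as a readout, and Col1a1, Col3a1 and Lox among them read higher in Lin28A Tg. The collagen gene Col1a2, whose probe was dim, did not separate the groups. Of 12 response genes 9 were tested. Of these, 5 lay above WT without overlap and 1 below, where 21.6% and 16.8% of all genes tested did so. The median log2 fold change of the 9 was 0.40, and none passed over all genes (limma, smallest adjusted p = 0.482). Col1a1, the main fibrillar collagen chain, read 1949 and 2010 in Lin28A Tg and 1044 and 1243 in WT. Col3a1, another fibrillar collagen, read 205 and 166 in Lin28A Tg and 150 and 130 in WT, a log2 fold change of 0.40 (SE 0.14), which was 0.25 without Lin28A Tg replicate 1 and 0.64 after normexp. Col1a2, named after its values were seen, read 97.1 and 114 in Lin28A Tg and 103 and 99.7 in WT, a log2 fold change of 0.05 (SE 0.10). Lox, which cross-links collagen, read 406 and 407 in Lin28A Tg and 277 and 310 in WT.

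Other response genes were mixed. Acta2, the smooth muscle actin of myofibroblasts and vessel walls, read 1003 and 821 in Lin28A Tg and 677 and 578 in WT, a log2 fold change of 0.54 (SE 0.14). The smooth muscle and pericyte list, which also holds Acta2, summed to 1761 and 1137 in Lin28A Tg and to 1331 and 1328 in WT, with Cnn1 below background on all 4 arrays. Tgfbi, whose name means TGF-beta induced, was lower, at 233 and 270 in Lin28A Tg and 309 and 297 in WT, a log2 fold change of -0.27 (SE 0.09, adjusted p = 0.547 with limma). Its difference was -0.17 without Lin28A Tg replicate 1. Postn, a matrix protein gene, was below the threshold on all 4 arrays. Ccn2, singled out after its values were seen, read 813 and 1678 in Lin28A Tg and 459 and 2700 in WT, a spread within each group larger than the difference between them.

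Of 6 BMP response genes 3 were tested. Hey1, a Notch and BMP target, read 152 and 141 in Lin28A Tg and 123 and 126 in WT, a log2 fold change of 0.23 (SE 0.07, adjusted p = 0.539 with limma). Id1 read 189 and 195 in Lin28A Tg and 112 and 194 in WT, so WT replicate 1 alone was low, and its log2 fold change of 0.38 (SE 0.28) was -0.02 without that array. Id3 was at 0.11 (SE 0.17), and at -0.09 to 0.31 with 1 array left out, with overlapping groups and the same array lowest.

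Marker lists of other cells were set beside the members array by array. Macrophage markers, all 8 of them tested, summed to 1598 and 1589 in Lin28A Tg and to 1424 and 1386 in WT, without overlap, and macrophages express Tgfb1 and Tgfbr1. Of the 8, Cd68, C1qb and Mrc1 lay above WT without overlap, as did 21.6% of all genes tested. Most of each sum was C1qb and Mrc1. C1qb read 528 and 510 in Lin28A Tg and 406 and 405 in WT. Mrc1 read 426 and 430 in Lin28A Tg and 393 and 349 in WT. Among the 8 markers, 4 had a positive and 4 a negative log2 fold change, and the median was 0.02. Endothelial sums were 1017 and 979 in Lin28A Tg and 910 and 1034 in WT. Adipocyte sums were 5905 and 7038 in Lin28A Tg and 7554 and 5702 in WT, with Retn below background. Most of each sum was Cfd, at 5435 and 6252 in Lin28A Tg and 6543 and 5037 in WT. Of the 5 adipocyte markers tested, 4 had a negative and 1 a positive log2 fold change, with a median of -0.32. Cidec alone of the 5 lay below WT without overlap, as did 16.8% of all genes tested. Of the 4 satellite cell markers with a row, Pax7, Myf5 and Calcr were below background on all 4 arrays, and Myod1, a myogenic transcription factor gene, read 101 and 97.7 in Lin28A Tg and 94.6 and 90.5 in WT, without overlap. The part of any of these cells in the members' differences was not tested.

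**Figure D4:**
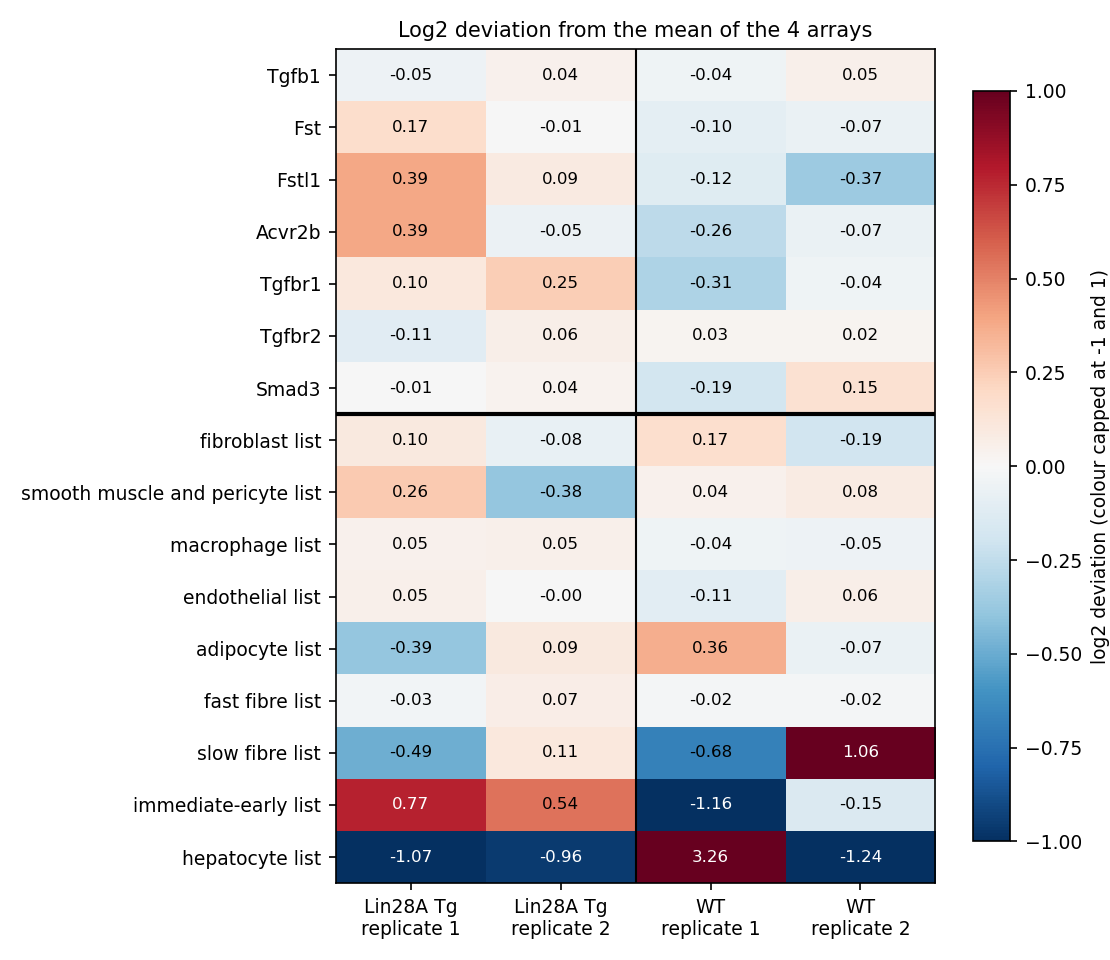
Log2 deviation from the mean of the 4 arrays, Lin28A Tg columns at the left, for the 7 members tested (upper rows) and for the mean of the tested genes of 9 marker lists (lower rows). Fstl1 and Acvr2b are highest on Lin28A Tg replicate 1, at 0.39 each, and Tgfbr1 is lowest on WT replicate 1, at -0.31, the array on which the immediate-early list is at -1.16 and the hepatocyte list at 3.26.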

How the data were processed

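Per the labels' protocols, total RNA was isolated with Trizol, DNase-treated during column clean-up and labelled as biotinylated cRNA for Illumina Ref-8 arrays. The deposited values are linear intensities, 1 row per gene symbol. At equal rank the arrays differ by 0.0916% in the median, so the authors had normalized them between arrays. The lowest value, 72.8, shows that a background level, or an offset added after subtraction, remains in the values. The software used for the normalization is not given in the sources used here. Another deposited table has 8 value columns whose names match no sample label and was not used.

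Symbols were updated through RefSeq (GRCm38.p6): 14090 rows held a current symbol, 3065 matched by an older name and the rest kept theirs. The brightest row per symbol was kept, leaving 17904 genes. Background was the mode of all log2 values (84.8 as an intensity), with an SD of 0.05 (log2) taken from the values under the mode, and the threshold its one-sided 95% limit, 90.1. Genes above it on at least 2 of 4 arrays, 7891, were tested without covariates in limma 3.58.1 (lmFit, eBayes; R 4.3.3). The fit was tested on simulated data. Log2 folds of dim genes are understated.

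The members and lists were chosen with earlier results of these data known. All members were named, and from each related list up to 5 tested genes with the smallest p. Nearest patterns were planned for Mstn too, but were not given because it was at background. Python 3.11.15 drew the figures. Alternatives were log2 of the intensity plus 16, normexp, no filter, a stricter filter, eBayes with trend and robust, quantile normalization, the replicate number as a block, and each array left out.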

Additional observations from a re-analysis of the deposited data

How the results depend on the processing

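No gene was called under 10 of the 11 alternatives, and without WT replicate 2 limma called 15 (2 higher and 13 lower in Lin28A Tg), 0 of them members, so leaving out each array gave 0 to 15. The number of members without overlap in either direction was 4 of 7 (38.2% to 39.9% of all genes) under the settings that kept all arrays and a filter. With no filter it was 6 of 9, counting Mstn and Smad7 at background, beside 35.4% of all genes. It was 5 of 7 without Lin28A Tg replicate 1 or WT replicate 2 and 6 of 7 without Lin28A Tg replicate 2 or WT replicate 1, beside 66.9% to 70.2% of all genes. Their median log2 fold change of 0.17 was 0.31 with normexp and 0.10 with no filter, the first through the removal of background and the second through those 2 genes, and 0.078 to 0.26 with an array left out. Fstl1, Tgfbr1, Acvr2b and Fst passed under none of the 11 alternatives. Their differences stayed positive under all of them, but for each array left out their lack of overlap fixes this in advance. The filters, the eBayes options and the block refit the same values and cannot change the difference. The direction turned for Tgfb1 (-0.055 to 0.040 with an array left out, positive without Lin28A Tg replicate 1 or WT replicate 2), Tgfbr2 (-0.14 to 0.033, positive without Lin28A Tg replicate 1) and Smad3 (-0.14 to 0.20, negative without WT replicate 1). With 1 array left in a group, its spread is assumed to equal that of the other. The replicate numbers share no stated source. Deviations of same-numbered arrays correlated at r = 0.04 across genes. The limma fit with the replicate number as a block called 0 genes (664 at an unadjusted p under 0.05, against 700 without it). In this balanced design a block cannot change a log2 fold change, so the members' median of 0.17 stays the same by construction. The number of arrays and the background in dim readings limit the precision.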
